A study of Mus musculus with 7 samples.

Results

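Cux1 is a homeobox transcription factor gene of mouse chromosome 5, and 2 further transcripts listed in the deposited table, A430110C17Rik and Gm38082, lie inside it. These 3 genes, chosen by symbol, are described here out of the 16760 genes of the deposited table. RNA was sequenced from CD150-negative mouse cells with a labelled cell type of HSC (haematopoietic stem cell), all of strain C57/B6, in 4 libraries of genotype WT and 3 of genotype 5G2del, which carry a deletion in chromosome band 5G2. Band 5G2 corresponds to part of human band 7q22. The sources used here do not give the deletion's ends, its zygosity, how it was made or the animals' age. Nor do they say whether each library is a different animal, so p-values measure only the spread between these libraries, which may be technical. The columns of the table show a library's group but not its sample, so the libraries are called 5G2del-A, -B and -C and WT-A, -B, -C and -D after their place in it.

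Cux1 encodes a DNA-binding protein with Cut repeats and a homeodomain, also called CCAAT displacement protein. Its full-length form binds DNA briefly and acts mostly as a repressor, and shorter forms made by proteolysis bind more stably and can activate genes of the S phase. The same gene also yields CASP, a Golgi membrane protein without the Cut repeats and homeodomain, by alternative splicing. In human myeloid malignancies CUX1 lies in the commonly lost part of 7q and is regarded as a tumour suppressor whose dose matters.

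In the GENCODE M21 annotation of mm10, Cux1 (ENSMUSG00000029705) spans chromosome 5 from 136248135 to 136567490 on the minus strand, 319 kb, with 14 transcripts and 20024 bases of merged exon sequence. A430110C17Rik (ENSMUSG00000102415) runs from 136345884 to 136350231 and Gm38082 (ENSMUSG00000104369) from 136529596 to 136536477, both on the minus strand, like Cux1. Each is a single exon, of 4.35 kb and 6.88 kb, and is classed as TEC, the GENCODE class for transcripts that still await experimental proof. Neither has a described function in the annotation used. A430110C17Rik begins 217 kb after the 5′ end of Cux1 and Gm38082 begins 31.0 kb after it. Gm38082 lies in intron 1 and A430110C17Rik in intron 8 of a Cux1 transcript with 24 exons. Both overlap annotated Cux1 exons by 0 bases. A430110C17Rik is intronic in 11 and Gm38082 in 10 of the 14 Cux1 transcripts. Reads from unspliced Cux1 RNA and reads from separate intragenic transcripts therefore cannot be told apart in these 2 intervals, whereas spliced Cux1 reads fall outside them. The annotation also holds the microRNA gene Mir721 and the antisense gene Gm16599 inside Cux1, neither of them among the listed genes. Gm16599 runs from 136274996 to 136417894 on the plus strand, a span that covers A430110C17Rik. Whether antisense reads were counted there was not tested.

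**Figure D1:**
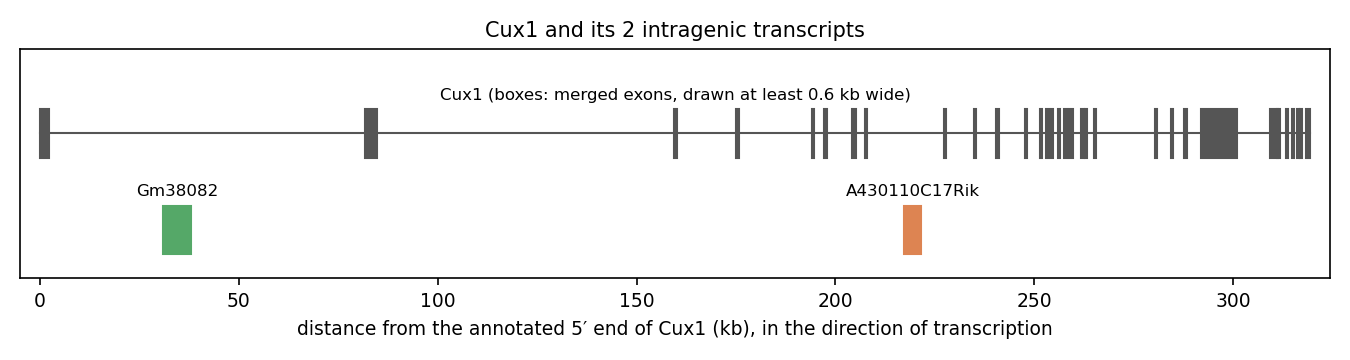
Map of Cux1 by distance from its annotated 5′ end in kb, with merged exons as grey boxes on the upper line and the 2 intragenic transcripts as coloured boxes below. Gm38082 begins 31.0 kb and A430110C17Rik 217 kb from the 5′ end, each in an intron.

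The start of Cux1 is shown first because both intragenic transcripts lie downstream of it. RefSeq places one start of Cux1 in the window chr5:136565932-136566231 of GRCm38.p6 on the minus strand, most of it before that start. The window lies 1.26 to 1.56 kb downstream of the GENCODE 5′ end from which distances are counted here, wholly inside an annotated Cux1 exon, so it is the promoter of that RefSeq start only. CG dinucleotides are in capitals.
Cux1 promoter: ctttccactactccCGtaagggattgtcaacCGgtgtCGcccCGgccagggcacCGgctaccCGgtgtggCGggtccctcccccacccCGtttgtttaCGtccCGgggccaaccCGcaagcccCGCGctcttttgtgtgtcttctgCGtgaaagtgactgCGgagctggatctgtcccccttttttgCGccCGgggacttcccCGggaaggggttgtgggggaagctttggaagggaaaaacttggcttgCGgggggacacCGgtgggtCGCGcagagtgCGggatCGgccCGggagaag
This window holds 25 CG dinucleotides in 300 bases, or 8.33 per 100 bases. Of 32851 such windows in the RefSeq table, 18.4% hold at least as many, and the median is 7.

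The first 120 bases of the intragenic transcripts are given for comparison, from the GENCODE M21 transcript sequences, 5′ to 3′, with CG in capitals.
A430110C17Rik, chr5:136350112-136350231, minus strand: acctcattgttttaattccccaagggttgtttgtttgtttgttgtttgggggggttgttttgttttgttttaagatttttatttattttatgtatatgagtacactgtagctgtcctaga
Gm38082, chr5:136536358-136536477, minus strand: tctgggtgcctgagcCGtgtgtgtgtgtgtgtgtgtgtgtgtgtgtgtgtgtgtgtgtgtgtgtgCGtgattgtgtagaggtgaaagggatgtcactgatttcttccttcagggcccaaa
The first stretch holds 0 CG dinucleotides and the second 2, at the edges of a long TG repeat. Over the whole transcripts CG occurred 0.736 times per 100 bases in A430110C17Rik and 0.538 times in Gm38082. Of 3285 TEC transcripts, 64.0% have at least 1 CG in their first 120 bases.

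The last 150 bases bear on whether a polyadenylation signal stands near the annotated 3′ end. The letters searched on the transcript's strand were AATAAA, in capitals.
A430110C17Rik, chr5:136345884-136346033, minus strand: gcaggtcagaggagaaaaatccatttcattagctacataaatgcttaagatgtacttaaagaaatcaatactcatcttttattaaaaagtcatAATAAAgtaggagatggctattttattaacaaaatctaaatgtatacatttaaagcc
Gm38082, chr5:136529596-136529745, minus strand: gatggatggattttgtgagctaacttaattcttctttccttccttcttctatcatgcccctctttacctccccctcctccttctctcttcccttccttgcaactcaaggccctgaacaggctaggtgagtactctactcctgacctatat
A430110C17Rik holds 1 AATAAA, which begins 57 bases before its end, and Gm38082 holds 0 in this window. AATAAA occurs in the last 150 bases of 28.2% of 3268 TEC transcripts and of 43.9% of 58695 protein-coding transcripts. Over the whole transcripts, beyond the windows printed, the longest run of A is 8 bases in A430110C17Rik and 11 in Gm38082.

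Per library, expected counts over the whole table came to 37930174 to 52194274. Genes without a count numbered 1104 in WT-B and from 83 to 492 elsewhere. In WT-B, Cux1 and A430110C17Rik lay inside the range of the other WT libraries and Gm38082 was the lowest of the 4. Markers of early progenitors were present: Kit was at 8.20 ± 0.02 log2 CPM over the 3 5G2del libraries (mean ± SD) and 8.11 ± 0.10 over the 4 WT ones, and Cd34 at 8.30 ± 0.16 and 8.17 ± 0.21. Slamf1, which encodes CD150, was low, at 0.56 ± 0.14 and -1.10 ± 0.98 log2 CPM, with every 5G2del library above every WT library. Of 9 progenitor markers, Cd48, which encodes a member of the CD150 family, had an unadjusted p under 0.05 (log2 fold change 0.99 ± 0.42, groups overlapping), and the lowest change was that of Ly6a, the gene of Sca-1, at -0.42 ± 0.31. Markers of mature cells were also counted: summed levels of 9 listed neutrophil genes were 70.0 to 4252 CPM in the 5G2del libraries and 40.0 to 1341 CPM in the WT ones, highest in 5G2del-A and WT-A. All 9 had higher means in 5G2del, 0 of them with an unadjusted p under 0.05. Summed erythroid markers were 38.1 to 98.8 CPM in 5G2del libraries and 71.8 to 233 CPM in WT ones, and all 9 genes had lower means in 5G2del. B cell markers summed to 25.9 to 203 CPM and 10.5 to 28.1 CPM, and Igkc, the kappa light chain gene among them, was at 7.51, 3.15 and 6.84 log2 CPM in the 5G2del libraries in order and at 3.44 or less in WT. Cd79a, Ms4a1, Cd3e and Cd8a are not among the listed genes. T and NK markers ran from 52.3 to 86.2 and from 29.2 to 54.3 CPM, and macrophage markers from 14.8 to 28.1 and from 15.0 to 28.9. Of the 4 measured T and NK genes, Nkg7 had the highest mean in both groups. It was the only 1 with a higher mean in 5G2del, and 3 had a lower one. Among T and NK markers the groups did not overlap for Nkg7, a granule protein gene, at 5.34 to 6.21 log2 CPM in 5G2del and 2.91 to 5.29 in WT, nor for Lck, a T cell kinase gene, with a log2 fold change of -0.50 ± 0.26. Il2rb, a cytokine receptor gene, was near or at 0 counts in 5G2del, at -6.42 to -4.04 log2 CPM, and at -2.66 to -0.73 in WT. Nkg7, Il2rb and Igkc had an unadjusted p under 0.05. Among macrophage markers the groups did not overlap for C1qb and Cd163, both lower in 5G2del, with log2 fold changes of -1.64 ± 0.88 and -1.14 ± 0.54. C1qb was low, at -3.23 to -1.16 log2 CPM in 5G2del. Groups without overlap were thus found in 1 of 9 progenitor, 3 of 4 T and NK and 2 of 7 macrophage markers, beside 5.70% of all genes in either direction. The groups overlapped in each of the 5 sums, and the part of these markers in the values below was not tested.

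Cux1 was lower in every 5G2del library than in every WT library. It measured 8.59, 8.44, 8.17 and 8.43 log2 CPM in the WT libraries in order and 7.06, 6.80 and 8.01 in the 5G2del libraries in order. The WT libraries lay close together, and 5G2del-C stood well above the other two 5G2del libraries and 0.15 below the lowest WT library. On the linear scale these were 287 to 385 CPM in WT against 134, 111 and 258 CPM, from 4782 to 21449 expected counts, so counting error was small beside the spread between libraries. CPM here rests on library sizes recovered from the values, not on summed expected counts. The recovered size was 41220903 in 5G2del-C, against a sum of 47664360, and 34865420 in WT-C, against 42038974. In every other library it was above the sum. Levels over summed counts were not computed. The log2 fold change (5G2del over WT) was -1.12 ± 0.25 (SE), with a 95% interval from -1.67 to -0.56, which corresponds to 0.461 of the WT level (0.314 to 0.678). In the limma fit across all genes the unadjusted p was 0.00101 and the adjusted p 0.989, so the difference missed the threshold of adjusted p 0.05. In bulk RNA, fewer cells that express a gene and less RNA per cell cannot be told apart.

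A430110C17Rik was also lower in each 5G2del library. It was at 4.21, 4.01, 3.38 and 3.496 log2 CPM in the WT libraries in order and at 1.599, 2.06 and 2.53 in the 5G2del libraries in order, from 127 to 1032 expected counts. The WT libraries fell in 2 pairs, and the highest 5G2del library lay 0.86 below the lowest WT library. Its log2 fold change was -1.72 ± 0.33 (SE; 95% interval -2.44 to -0.99), 0.305 of the WT level, with a limma unadjusted p of 0.000280 and an adjusted p of 0.874.

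Gm38082 behaved likewise in direction, with 4.20, 4.00, 4.18 and 4.32 log2 CPM in the WT libraries in order and 3.24, 2.29 and 3.20 in the 5G2del libraries in order, from 210 to 1021 expected counts. The WT libraries were close together, and 5G2del-B was the lowest library. The gap between the groups was 0.76. Its log2 fold change was -1.27 ± 0.28 (SE; 95% interval -1.88 to -0.66), 0.416 of the WT level, with a limma unadjusted p of 0.000787 and an adjusted p of 0.989.

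**Figure D2:**
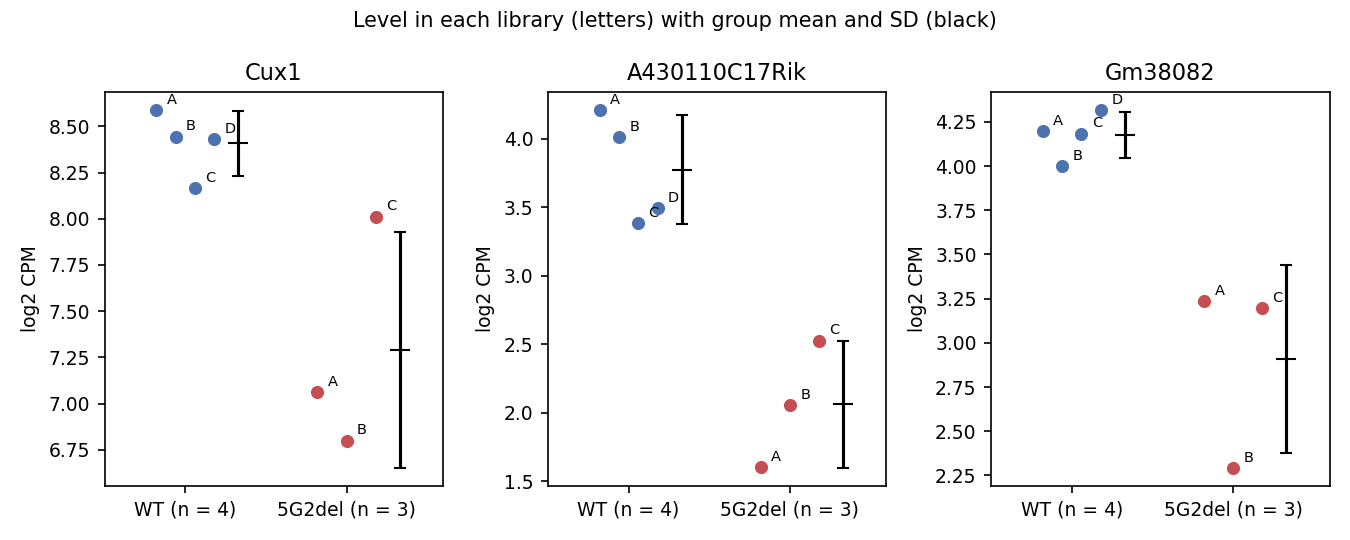
Level of Cux1, A430110C17Rik and Gm38082 in log2 CPM (vertical axis, own scale in each panel) in 4 WT and 3 5G2del libraries, with points for libraries and black bars for group mean and SD. All 5G2del points lie below all WT points in each panel, with gaps of 0.15, 0.86 and 0.76.

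All 3 genes thus had an unadjusted p under 0.05 in the lower direction, where 2.24% of all genes did, and groups that did not overlap in the lower direction, where 2.78% of all genes did. By limma p-value they stood at ranks 12, 5 and 10 of 16760 genes. The 3 overlap in span and were picked with these results known, so they are not independent of each other. Limma called 0 of 16760 genes past adjusted p 0.05, with 656 genes at an unadjusted p under 0.05, and the authors' deposited table likewise held 0. In the authors' deposited table the log2 fold changes were -1.12 for Cux1, -1.75 for A430110C17Rik and -1.28 for Gm38082. With 1 library left out, the log2 fold change of Cux1 ran from -1.48, without 5G2del-C, to -0.87, without 5G2del-B. The limma adjusted p of Cux1 was 0.0601 without 5G2del-C and stayed above that in every other setting tried.

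The 5G2del libraries were not in the same order in the 3 genes. Cux1 and A430110C17Rik were both highest in 5G2del-C, Cux1 and Gm38082 were lowest in 5G2del-B, and A430110C17Rik was lowest in 5G2del-A. In WT, A430110C17Rik was higher in WT-A and WT-B than in WT-C and WT-D, a split that Gm38082 did not show. The spread among 5G2del libraries exceeded that among WT libraries for Cux1 (SD 0.64 against 0.18) and Gm38082 (0.53 against 0.13), and less so for A430110C17Rik (0.46 against 0.40).

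Levels were then set beside each other per length of exon sequence. In WT, Cux1 stood at 17.05 ± 2.02 CPM per kb of merged exon, A430110C17Rik at 3.24 ± 0.893 and Gm38082 at 2.63 ± 0.236 (SD, n = 4). In 5G2del these levels were 8.37 ± 3.95, 0.990 ± 0.316 and 1.14 ± 0.369 CPM per kb (SD, n = 3). Per kb, A430110C17Rik thus reached 18.8% ± 3.47 of the Cux1 level in WT and 12.6% ± 3.93 in 5G2del, and Gm38082 15.6% ± 2.41 and 14.5% ± 5.31. The merged exons include alternative ends that not every Cux1 transcript uses, so the Cux1 level per kb may be lower than for a single isoform. The expected counts of both intragenic transcripts were whole numbers in all 7 libraries within 0.01, whereas those of Cux1 were not whole in 5 of 7.

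Whether the intragenic transcripts differed from Cux1 in their difference between groups was tested on within-library differences. A430110C17Rik minus Cux1 was -4.38, -4.43, -4.78 and -4.93 on the log2 CPM scale in the WT libraries in order and -5.46, -4.74 and -5.49 in the 5G2del libraries in order. The groups overlapped through 5G2del-B. The difference between group means was -0.60 (two-sided exact permutation p = 0.143; 0.571 after Benjamini-Hochberg adjustment over 4 such tests). With 3 libraries against 4, this p cannot go below 0.0286.

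Gm38082 minus Cux1 ran from -4.44 to -3.98 in WT and was -3.83, -4.51 and -4.82 in the 5G2del libraries in order, on both sides of the WT values. The difference between group means was -0.15 (exact permutation p = 0.629, adjusted 0.629), and without 5G2del-C its sign turned, to 0.067. A430110C17Rik minus Gm38082 differed by -0.45 between groups (exact permutation p = 0.343, adjusted 0.629), and by -0.055 without 5G2del-A and -0.75 without 5G2del-B. None of these 3 tests passed, which does not show that the 3 transcripts changed equally.

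**Figure D3:**
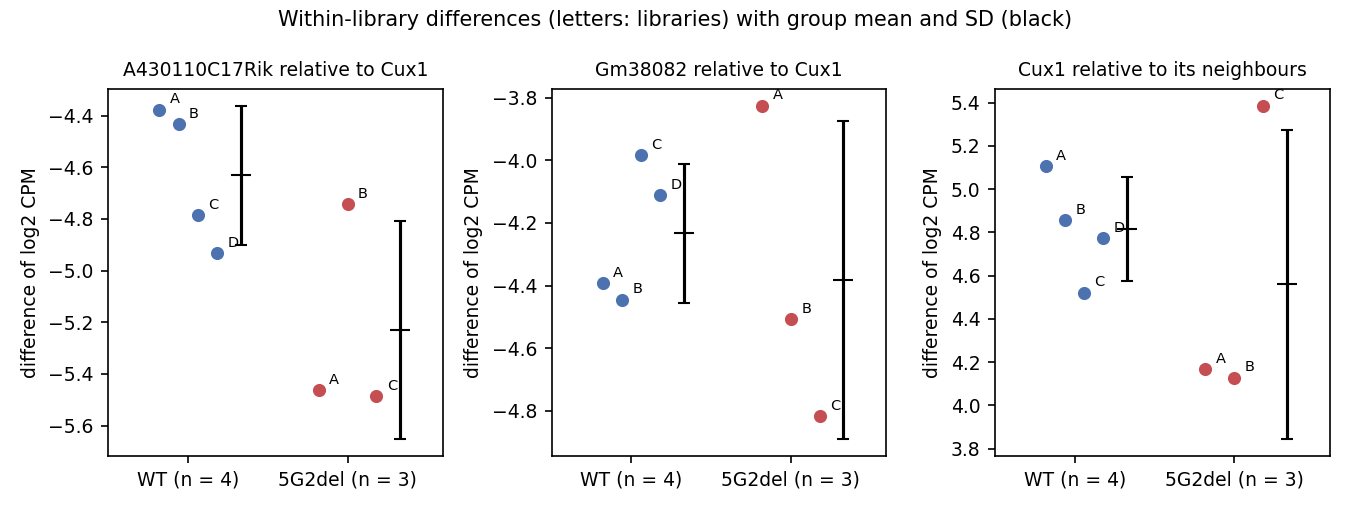
Differences of log2 CPM within each library (vertical axis) for A430110C17Rik minus Cux1, Gm38082 minus Cux1 and Cux1 minus the mean of its 10 neighbours, in 4 WT and 3 5G2del libraries, with black bars for group mean and SD. The groups overlap in all 3 panels, and 5G2del-C is the highest library in the third.

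The counts of all 3 genes were summed, giving a level of the locus that does not depend on how reads were divided among them. It was 8.72, 8.57, 8.30 and 8.55 log2 CPM in the WT libraries in order and 7.19, 6.91 and 8.09 in the 5G2del libraries in order. Cux1 itself made up 91.0% to 91.7% of the summed counts in WT and 91.5% to 94.5% in 5G2del. The group means differed by -1.14 on the log2 scale. No test was made on this sum, because the genes in it were chosen with earlier results known.

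The intragenic pair was set beside other transcripts of the same kind, a comparison chosen after the values were seen. The table holds 1054 TEC genes, of which 623 lie on the same strand within a listed protein-coding gene without touching its exons. Of these, 44 had a mean log2 CPM over 2, including the pair in Cux1. A430110C17Rik and Gm38082 had the lowest and the next lowest log2 fold change of the 44. Without that minimum they were not at the end of the order: 61 of the other 621 had a lower log2 fold change than A430110C17Rik and 94 a lower one than Gm38082, down to -4.60. Of those 621, 24 were lower without overlap of the groups, beside 2.78% of all genes. Among the 42 of them with a mean log2 CPM over 2, 2 were lower without overlap. These 42 ran from -0.97 to 0.66 with a median of -0.05, and the lowest of them was Gm37558 in Kpna4, which encodes an importin. Across these 42 transcripts the fold change of the transcript and that of its host had a Pearson r of -0.15, a description across genes that share all 7 libraries. The level per kb was a median of 21.9% of the host's, with quartiles of 13.4% and 47.6%. Over all 627 pairs of transcript and host outside Cux1 it was a median of 11.4%, with quartiles of 6.10% and 22.2%. The Cux1 pair, at 17.1% and 14.9% over all 7 libraries, lay below the first median and above the second.

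**Figure D4:**
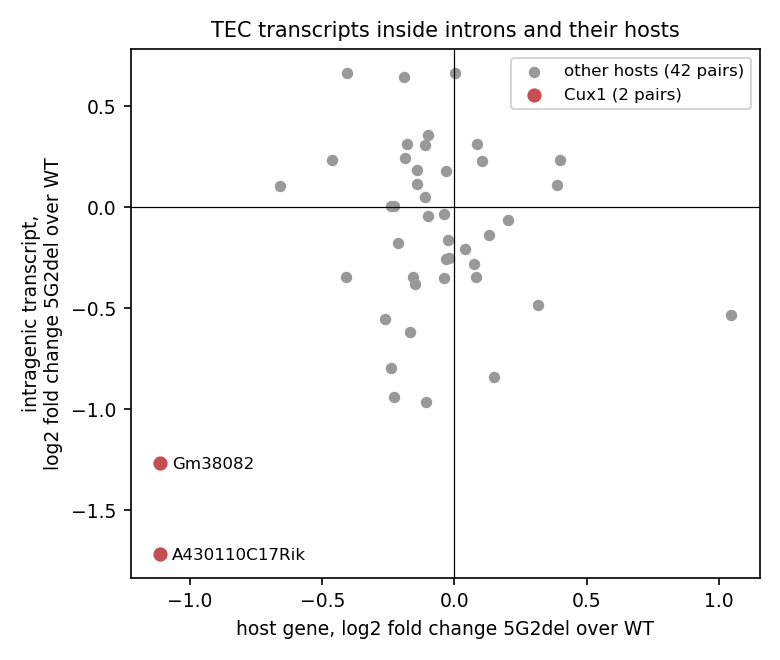
Log2 fold change (5G2del over WT) of the host gene (horizontal axis) and of the TEC transcript inside one of its introns (vertical axis), for transcripts with a mean log2 CPM over 2. The 2 red points of Cux1 stand at the lower left, below the 42 grey points of other hosts, which run from -0.97 to 0.66.

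The nearest listed protein-coding genes on either side show where Cux1 stands in its surroundings. These were Lrwd1, Alkbh4, Orai2, Prkrip1 and Sh2b2 on one side and Myl10, Ift22, Fis1, Znhit1 and Plod3 on the other. In 5G2del the mean of all 10 was lower. Their log2 fold changes lay between -2.03, for Myl10, and -0.29, for Sh2b2, with a median of -0.77, beside 0.03 over all genes. Of the 10, 5 had an unadjusted p under 0.05, beside 2.24% of all genes in the lower direction. Of the 10, 2, Lrwd1 and Fis1, both lower in 5G2del, had groups that did not overlap. The groups did not overlap in 2.78% of all genes in the lower direction and in 5.70% of all genes in either direction. None of the 10 neighbours passed the adjusted threshold in limma (adjusted p = 0.989). Sh2b2, an adaptor protein gene and the nearest to the 3′ end of Cux1, was at 2.19 ± 0.39 log2 CPM over the 3 5G2del libraries (mean ± SD) and 2.48 ± 0.27 over the 4 WT ones.

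Cux1 minus the mean log2 CPM of these 10 genes was 5.11, 4.86, 4.52 and 4.77 in the WT libraries in order and 4.17, 4.13 and 5.39 in the 5G2del libraries in order. Relative to its neighbours Cux1 was thus below every WT library in 2 of the 5G2del libraries and above every WT library in 5G2del-C. The group means differed by -0.25 (exact permutation p = 0.514, adjusted 0.629), by -0.67 without 5G2del-C, -0.058 without 5G2del-A and -0.039 without 5G2del-B. In 5G2del-C, Myl10, a myosin light chain gene, was likewise well above the other 5G2del libraries, at 4.01 log2 CPM against 1.37 and 1.23. Lrwd1, Alkbh4, Sh2b2 and Plod3, by contrast, had their lowest 5G2del value in 5G2del-C.

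**Figure D5:**
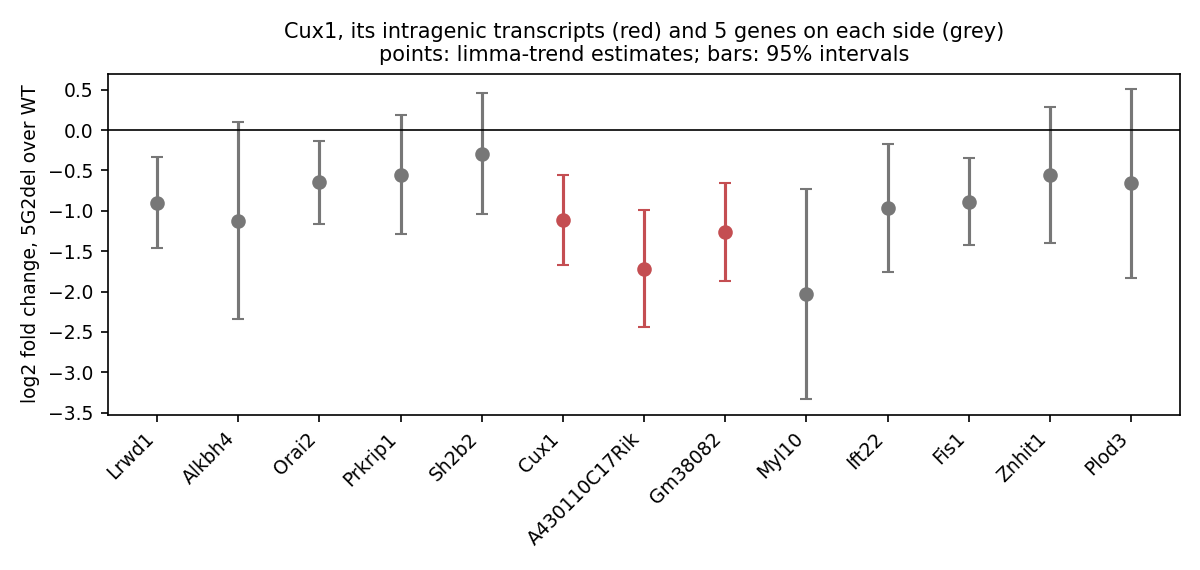
Log2 fold change of 5G2del over WT (vertical axis) with 95% intervals from limma for 5 genes on each side of Cux1 (grey) in chromosomal order and for the 3 genes of the Cux1 locus (red). All 13 points lie below 0, from -2.03 to -0.29.

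Relatives of Cux1 with a Cut domain were looked up next. Cux2, Onecut1, Onecut2 and Onecut3 are not among the listed genes. Satb1, a chromatin organizer of lymphoid-primed cells, was at 6.45 ± 0.47 log2 CPM over the 3 5G2del libraries (mean ± SD) and 6.66 ± 0.64 over the 4 WT ones, with overlapping groups and a sign that turned with single libraries left out.

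Genes tied to the work of Cux1 in earlier literature were then examined in 6 lists. The lists also take in these relatives and 14 Golgi genes chosen beside the CASP product. Of 57 measured genes, 0 passed adjusted p 0.05, and 3 lower and 1 higher had an unadjusted p under 0.05, 7.02% in all, beside 3.91% of all genes. Their median log2 fold change was 0.04, beside 0.03 over all genes.

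Of 14 enzymes and partners that modify or bind the Cux1 protein, 2 were lower at an unadjusted p under 0.05 and 0 higher, beside 2.24% and 1.68% of all genes. By sign alone 5 were lower and 9 higher, with a median log2 fold change of 0.06. Kat2b, an acetyltransferase, was at 4.45 ± 0.19 log2 CPM over the 3 5G2del libraries (mean ± SD) and 4.86 ± 0.08 over the 4 WT ones, a log2 fold change of -0.41 ± 0.18 (SE). Rb1, the retinoblastoma protein gene, was at 3.93 ± 0.28 and 4.46 ± 0.29 log2 CPM, a log2 fold change of -0.53 ± 0.23. The groups did not overlap in either gene, nor in Cdk2, a cell cycle kinase gene that was higher in 5G2del at 0.42 ± 0.20. These 3 of the 14 genes stand beside 5.70% of all genes without overlap in either direction. For Rb1 the highest 5G2del library was at 4.22 log2 CPM and the lowest WT library at 4.26. Cdk1, also a cell cycle kinase gene, had 0.44 ± 0.25 with overlapping groups. Ctsl, the protease cathepsin L that can cut Cux1 to its shorter form, had -0.22 ± 0.22, Csnk2a1, a casein kinase subunit, -0.16 ± 0.18, Kmt2a, a histone methyltransferase gene, -0.19 ± 0.19, and the deacetylases Hdac1 and Hdac2 0.05 ± 0.18 and 0.03 ± 0.20. The signs of Hdac1 and Hdac2 turned with single libraries left out.

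Among 12 genes described as activated by Cux1, 0 had an unadjusted p under 0.05 in either direction, 3 were lower and 9 higher, and the median log2 fold change was 0.12. Pik3ip1, an inhibitor of phosphoinositide 3-kinase, was at 6.45 ± 0.51 log2 CPM over the 3 5G2del libraries (mean ± SD) and 6.15 ± 0.39 over the 4 WT ones, a log2 fold change of 0.30 ± 0.26 that came to 0.019 with 1 library left out at the lowest. Cad, for pyrimidine synthesis, had 0.17 ± 0.27, and Pola1, the DNA polymerase alpha subunit, had -0.087 ± 0.20, a sign that turned with single libraries left out. The checkpoint kinase genes Atm and Atr had -0.19 ± 0.16 and -0.26 ± 0.16, and for Atr the groups did not overlap. Chek1, a further checkpoint kinase gene, had 0.45 ± 0.24, the highest of the list.

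Among 9 measured genes described as repressed by Cux1, 0 had an unadjusted p under 0.05, 3 were lower and 6 higher, and the median was 1.09. That median rests on Ltf, Lcn2 and Camp, neutrophil granule genes that the neutrophil marker list also holds, and on Cybb, the phagocyte oxidase subunit, and Ncam1. Lcn2 was at 5.74, 0.37 and -0.30 log2 CPM in the 5G2del libraries in order and at 4.37, -6.37, -3.32 and -4.28 in WT-A to WT-D, where -6.37 stands for 0 counts, so that 1 library of each group was high. The cell cycle inhibitor genes Cdkn1a and Cdkn1b had log2 fold changes of 0.04 ± 0.45 and -0.21 ± 0.21, Myc had -0.0069 ± 0.19 and Tgfbr2 -0.20 ± 0.15. The signs of Cdkn1a and Myc turned with single libraries left out.

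Cux1 protein is also an accessory factor of base excision repair, stimulating the glycosylase Ogg1. Of 7 genes of that pathway 1 was higher at an unadjusted p under 0.05, as were 1.68% of all genes, and 0 were lower. Apex1, the abasic site endonuclease, was at 5.88 ± 0.27 log2 CPM over the 3 5G2del libraries (mean ± SD) and 5.40 ± 0.27 over the 4 WT ones, a log2 fold change of 0.48 ± 0.20. Its groups barely failed to overlap, with 5G2del-C at 5.711 log2 CPM and WT-B at 5.696. Ogg1 itself had a log2 fold change of -0.011 ± 0.46, the glycosylase Neil1 -0.024 ± 0.49, the polymerase Polb 0.052 ± 0.30 and Parp1, the strand break sensor, 0.10 ± 0.18. The sign turned in each of these 4 with single libraries left out.

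Of 14 Golgi genes chosen beside the CASP product, 1 was lower at an unadjusted p under 0.05, beside 2.24% of all genes, and 0 were higher, with a median log2 fold change of -0.13. Gcc2, a golgin of the trans-Golgi, was at 5.67 ± 0.21 log2 CPM over the 3 5G2del libraries (mean ± SD) and 6.09 ± 0.11 over the 4 WT ones, -0.42 ± 0.16 as a log2 fold change, and no 5G2del library reached the WT range. Trip11 had -0.31 ± 0.16, Rab1a -0.12 ± 0.14 and Golga4 -0.010 ± 0.14. Golga5 and Golgb1, golgins related to or binding CASP, had 0.30 ± 0.24 and -0.14 ± 0.17. The gene-level values hold no split between CASP and the homeodomain forms of Cux1.

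The genes most like Cux1 over the 7 libraries, among 10355 other genes with a mean log2 CPM over 2, were Tap1, Ktn1, Nsun3, Havcr2 and Gm11427, with Pearson r from 0.94 to 0.97. Tap1 (r = 0.97, Spearman rho 0.96) was at 6.15 to 6.27 log2 CPM in WT and at 5.76, 5.42 and 6.15 in the 5G2del libraries in order. A430110C17Rik (r = 0.92) and Gm38082 (r = 0.89) would stand at places 17 and 27 of the same order. These values describe 7 libraries in 2 groups and partly follow from the difference between the groups.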

How the data were processed

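The authors deposited 1 table of 16760 genes with log2 CPM for 7 libraries. The p-value, the q-value, a t score and the log2 fold change that stand beside them come from the authors' own fit. The tools listed by the submitters' processing notes are limma 3.50.3, RSEM 1.3.0 and STAR 2.7.9a, and the builds GRCh38 and mm10, with no role. The annotation, low-gene filter and scaling behind the table are not given there.

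From the log2 CPM, expected counts were recovered with an offset of 0.5 count, and 71.3% were whole within 0.01. A voom fit on them met the authors' deposited fold changes within 4.49e-14. Since the rest were fractional, count models were left out. A floor of 3 counts corresponds to 0.0538 to 0.0860 CPM and covers counting error alone. Reads shared by similar genes are divided by RSEM, and no source gives the strand setting.

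The comparison used limma 3.58.1 (limma-trend, whose prior variance follows the mean level) in R 4.3.3 on all genes, with Benjamini-Hochberg adjustment, checked on simulated data. Within-library differences were compared by two-sided exact permutation with scipy 1.17.1. Positions came from GENCODE M21 by gene identifier, which matched all but 12 genes. Members and lists were chosen with earlier results of these data known. The rule for named list genes was an unadjusted p under 0.05, or one of the 4 highest levels among the rest. Of the cell type marker lists the latter are given only in sums, apart from Kit, Cd34, Lck and Cd163, and some further genes were chosen after their values were seen. The sum over the locus has no test, although an exact test had been planned. The values of 1 list gene are not reported here.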

Additional observations from a re-analysis of the deposited data

How the results depend on the processing

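The log2 fold changes of Cux1, A430110C17Rik and Gm38082 kept their sign and missed adjusted p 0.05 in limma in all 14 other settings: no trend, voom, quantile normalization, median centring, library sizes without mitochondrial rRNA, genes with a mean log2 CPM of 2 or less left out, an offset of 5 counts, and each library left out. Cux1 ran from -1.48 to -0.87, A430110C17Rik from -1.95 to -1.48 and Gm38082 from -1.43 to -0.96. The summed locus ran from -1.49 to -0.90. The number of genes called was 1 without the trend (Sfrp5) and ran from 0 to 1 with each library left out (Thbs1, without 5G2del-C). For that number, median centring, library sizes without mitochondrial rRNA and the offset of 5 were chosen after seeing the data, and each gave 0. The difference of Gm38082 from Cux1 ran from -0.43 to 0.067 with each library left out, turning sign without 5G2del-C. With any library left out the exact test cannot pass 0.05. Cux1 minus its neighbours was -0.22 with 3 and -0.32 with 10 neighbours on each side. No paired analysis was possible because the columns of the table carry no replicate number.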

Other observations

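After the group means were taken off, the genes whose remaining variation was most like that of Cux1 over the 7 libraries were Ern1, 1810013L24Rik, Tnip1, Taf8 and Phlpp1, with Pearson r from 0.98 to 0.99 among 10355 genes. Ern1, a sensor of unfolded protein in the endoplasmic reticulum, measured 5.72, 5.54 and 7.07 log2 CPM in the 5G2del libraries in order, beside 6.06 to 6.68 in WT. Tnip1, an inhibitor of NF-kB signalling, measured 4.80, 4.69 and 5.102 log2 CPM, beside 4.64 to 4.77 in WT. In each of these 5 genes 5G2del-C was the highest of the 7 libraries. Against the same measure A430110C17Rik (r = 0.68) and Gm38082 (r = 0.58) stood at places 412 and 789. With 7 libraries and as many genes as this, high values are to be found in any such ranking, and no test was made.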
